A study of Mus musculus with 20 samples.

Results

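Promoters that kept the methylation mark H3K4me3 but had no acetylation peak without p300 were examined in lineage-depleted (Lin-) bone marrow cells of the mouse. The members were chosen by measured peaks: autosomal protein-coding genes whose window of 1000 bp on either side of the gene start overlapped an H3K4me3 peak in all 4 genotypes and an H3K27ac peak in WT and Tet2-/- cells, but no H3K27ac peak in Ep300Δ/Δ or Ep300Δ/ΔTet2-/- cells. There were 181 such promoters among the 20807 autosomal protein-coding gene starts of the annotation (GENCODE mouse release M21, GRCm38, also called mm10). H3K4me3 was present in all 4 genotypes at 11675 starts, and 8326 of these were also acetylated in WT and Tet2-/- cells.

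ChIP-Seq of histone marks was made from Lin- cells, with 1 library for each of the 4 genotypes and each mark, so that no difference between genotypes could be tested against the spread of replicates. WT mice were Ep300 fl/fl without Cre, Ep300Δ/Δ mice (labelled p300 Knockout) were Mx1-Cre;Ep300 fl/fl, Tet2-/- mice (labelled Tet2 Knockout) were Ep300 fl/fl;Tet2-/-, and Ep300Δ/ΔTet2-/- mice (labelled p300 Tet2 Knockout) were Mx1-Cre;Ep300 fl/fl;Tet2-/-. Mice of every genotype were injected repeatedly with poly(I:C) as young adults, which switches on the interferon-responsive Mx1 promoter, also outside blood cells. Cre and the Ep300 deletion occurred in the same groups and cannot be told apart. The methods give a default interval of weeks between injection and experiments and none for ChIP-Seq in particular, and the number of mice in a library is not given in the sources used here. A difference between lists can come from the chromatin of the same cells or from a different mix of cells in the Lin- fraction, and these cannot be told apart here.

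Acetylation of histone H3 at lysine 27 marks active promoters and enhancers and is written mainly by p300, encoded by Ep300, and its relative CBP, which remained intact in these mice. H3K4me3 is laid down by other enzymes at promoters, typically where CpG dinucleotides are dense, and H3K4me1 flanks promoters and marks enhancers. TET2 oxidizes methylated cytosine and is often lost in myeloid neoplasms.

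Both CpG-dense and CpG-poor promoters were among the members, and the following 8 show this range. By the rule for printed sequences, 6 are the members of strongest acetylation that have a RefSeq promoter and share their window with no other coding gene (Ppfibp1, Irf2bp1, Srebf1, Ralgapa2, Il1rl1, and Selenbp1, which leaves out Dnali1), and Gata2 and Elane were added as blood cell genes after their values were seen. Each is the RefSeq promoter in GRCm38.p6, from 250 bases before to 50 bases after the RefSeq start, 5′ to 3′ along the gene, with CpG dinucleotides in capitals.
Ppfibp1 (chr6:146888244-146888543, plus strand): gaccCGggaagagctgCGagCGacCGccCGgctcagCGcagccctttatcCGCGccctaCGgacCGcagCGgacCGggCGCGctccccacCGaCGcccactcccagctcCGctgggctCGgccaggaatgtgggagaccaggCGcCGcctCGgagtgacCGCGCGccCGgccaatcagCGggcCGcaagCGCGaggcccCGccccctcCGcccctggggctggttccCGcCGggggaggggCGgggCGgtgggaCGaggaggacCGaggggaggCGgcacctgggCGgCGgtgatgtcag
Irf2bp1 (chr7:19003808-19004107, plus strand): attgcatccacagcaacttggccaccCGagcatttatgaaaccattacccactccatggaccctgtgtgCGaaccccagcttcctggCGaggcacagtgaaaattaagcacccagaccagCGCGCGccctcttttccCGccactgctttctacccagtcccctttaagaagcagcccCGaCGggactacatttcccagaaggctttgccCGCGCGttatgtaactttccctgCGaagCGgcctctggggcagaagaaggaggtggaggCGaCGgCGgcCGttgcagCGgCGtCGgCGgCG
Srebf1 (chr11:60222532-60222831, minus strand): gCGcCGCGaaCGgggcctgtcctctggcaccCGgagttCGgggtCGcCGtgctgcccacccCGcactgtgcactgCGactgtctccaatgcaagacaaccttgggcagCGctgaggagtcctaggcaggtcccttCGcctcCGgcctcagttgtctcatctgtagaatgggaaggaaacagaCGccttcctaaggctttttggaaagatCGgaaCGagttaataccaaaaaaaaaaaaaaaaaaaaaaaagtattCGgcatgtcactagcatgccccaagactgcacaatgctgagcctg
Ralgapa2 (chr2:146511955-146512254, minus strand): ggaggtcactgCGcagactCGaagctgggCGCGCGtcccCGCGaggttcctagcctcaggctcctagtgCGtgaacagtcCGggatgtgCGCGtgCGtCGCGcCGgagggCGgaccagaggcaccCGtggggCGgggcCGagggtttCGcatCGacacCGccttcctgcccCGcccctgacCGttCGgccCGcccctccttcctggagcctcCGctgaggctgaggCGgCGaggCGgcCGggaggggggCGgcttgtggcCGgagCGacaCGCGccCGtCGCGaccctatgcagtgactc
Gata2 (chr6:88193641-88193940, plus strand): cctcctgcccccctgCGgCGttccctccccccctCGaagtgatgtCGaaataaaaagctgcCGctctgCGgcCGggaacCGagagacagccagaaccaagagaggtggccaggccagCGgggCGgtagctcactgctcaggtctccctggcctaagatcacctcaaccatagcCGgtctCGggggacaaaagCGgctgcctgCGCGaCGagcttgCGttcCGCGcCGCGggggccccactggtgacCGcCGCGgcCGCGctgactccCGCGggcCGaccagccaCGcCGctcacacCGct
Il1rl1 (chr1:40429320-40429619, plus strand): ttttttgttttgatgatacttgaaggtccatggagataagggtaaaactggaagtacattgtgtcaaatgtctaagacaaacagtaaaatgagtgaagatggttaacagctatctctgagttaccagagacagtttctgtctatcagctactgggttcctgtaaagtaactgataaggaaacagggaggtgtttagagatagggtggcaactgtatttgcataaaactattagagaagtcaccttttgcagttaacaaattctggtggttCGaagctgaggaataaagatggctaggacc
Selenbp1 (chr3:94932833-94933132, plus strand): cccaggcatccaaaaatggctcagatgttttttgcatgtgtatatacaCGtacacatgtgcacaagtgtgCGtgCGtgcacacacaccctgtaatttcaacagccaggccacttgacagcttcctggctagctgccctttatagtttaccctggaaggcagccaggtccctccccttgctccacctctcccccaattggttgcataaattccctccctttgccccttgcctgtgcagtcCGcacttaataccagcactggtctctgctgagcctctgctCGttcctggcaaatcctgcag
Elane (chr10:79886062-79886361, plus strand): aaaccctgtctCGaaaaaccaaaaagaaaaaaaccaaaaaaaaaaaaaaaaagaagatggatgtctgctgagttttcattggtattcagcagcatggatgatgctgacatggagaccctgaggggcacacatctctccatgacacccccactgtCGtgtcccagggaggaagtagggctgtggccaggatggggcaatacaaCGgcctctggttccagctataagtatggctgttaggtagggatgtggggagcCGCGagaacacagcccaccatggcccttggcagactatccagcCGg

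The promoters of Ppfibp1, Ralgapa2, and Gata2 held 40, 39, and 32 CpG dinucleotides in 300 bases, and those of Irf2bp1 and Srebf1 held 23 and 17. By contrast, the promoters of Elane, Selenbp1, and Il1rl1 held 6, 5, and 1. RefSeq starts were 0 to 340 bp from the GENCODE starts used for the windows. Among all members, the ratio of observed to expected CpG within 1000 bp of the start had a median of 0.592 (quartiles, 0.414 and 0.714), compared with 0.649 at the 7549 promoters that were acetylated in all 4 genotypes (retained promoters) and 0.486 at all 20807 starts. A ratio of at least 0.6 was found at 89 of 181 members (49.2%; 95% exact binomial interval, 41.7% to 56.7%) and at 61.9% of retained promoters. Retained promoters were more strongly acetylated, and for a comparison nearer to the members 633 of them were taken whose WT fold enrichment lay between the members' lower and upper quartile. In this group of retained promoters with similar WT acetylation, which in Tet2-/- cells was still more strongly acetylated than the members (medians of 6.83 and 5.04 fold), the median ratio was 0.575 (lower quartile, 0.462) and 44.1% reached 0.6. A ratio under 0.3 was found at 13.3% of the members, 7.90% of these promoters, and 12.6% of the 135 promoters that lost acetylation in Ep300Δ/Δ cells only. Intervals here and below cover counting error only.

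The acetylation peaks that defined the members were weak, which is a description of the values used by the rule. Fold enrichment over histone H3 had a median of 5.57 in WT (range, 2.57 to 14.7) and 5.04 in Tet2-/- cells (range, 2.003 to 12.7). These medians lay at percentile 37.7 of all H3K27ac peaks of the WT list and percentile 32.2 of the Tet2-/- list, whereas retained promoters had medians of 15.5 and 13.4 fold, at percentiles 84.3 and 80.9. The strongest member peaks were also short, with median widths of 418 and 358 bp, compared with 802 and 745 bp at retained promoters. Fold enrichment and percentile describe 1 list each and were not compared between lists as amounts.

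**Figure D1:**
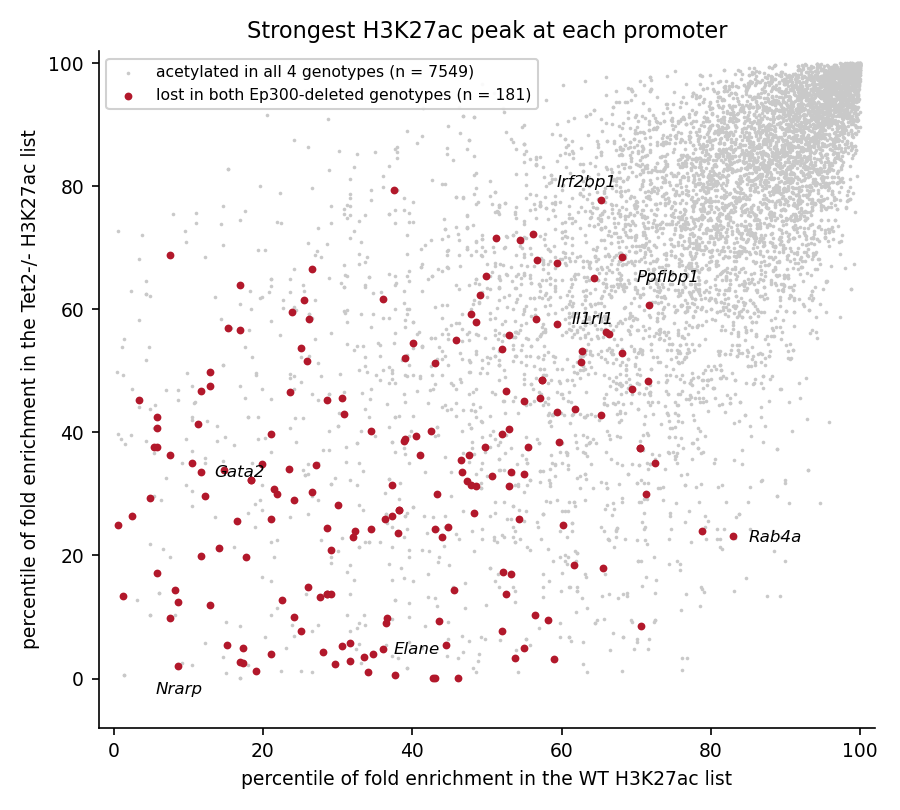
Each point is a promoter, placed by the percentile of its strongest H3K27ac peak among all peaks of the WT list (horizontal axis) and of the Tet2-/- list (vertical axis). The 181 members (red) lie mostly in the lower and middle part of the lists, and the lower of their 2 percentiles is at most 73.84. Most of the 7549 promoters acetylated in all 4 genotypes (gray) lie in the upper right.

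Acetylation was lost at 6.53% of the promoters acetylated in WT cells when Ep300Δ/Δ cells were compared (575 of 8799) and at 9.58% of those acetylated in Tet2-/- cells when Ep300Δ/ΔTet2-/- cells were compared (829 of 8654). With only peaks of −log10 q of at least 5 these shares were 13.6% and 11.3%, in the opposite order, so that the backgrounds cannot be ranked. The members, lost in both comparisons, made up 2.17% of the 8326 promoters acetylated in WT and Tet2-/- cells. This share was 4.43% (353 members) with only such peaks, 1.32% (105 members) with such peaks asked for presence only, and 1.44% (110 members, 73 of them among the 181) with lists of equal size. Of the 316 promoters that lost the peak in Ep300Δ/Δ cells, 181 (57.3%; 51.6% to 62.8%) also lacked it in Ep300Δ/ΔTet2-/- cells, compared with 461 of the 8010 that kept it (5.76%; 5.26% to 6.29%). These are values that the rule used. The support of a promoter was taken as the lower of its percentiles in the WT and Tet2-/- lists, and the 8326 promoters were divided into 4 classes of equal size by it. In the lowest class were 166 of the 181 members, in the next the other 15, and in the upper classes 0. Within the lowest class, 59.1% of the promoters lost in Ep300Δ/Δ cells (166 of 281) and 19.8% of those kept (356 of 1801) had no peak in Ep300Δ/ΔTet2-/- cells. In the next class these shares were 45.5% (15 of 33) and 4.79% (98 of 2048). The classes and the losses both come from values that the rule used, so these shares are a description only. The opposite pattern, a peak in both Ep300-deleted genotypes and in neither of the others, occurred at 49 of the 2548 promoters without a peak in WT and Tet2-/- cells (1.92%; 1.43% to 2.53%).

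Several members were decided by a few base pairs. The nearest acetylation peaks outside the window belonged to Prpf6, a splicing factor, at 1013 bp from the start in Ep300Δ/Δ and 1006 bp in Ep300Δ/ΔTet2-/- cells, and to F2rl2, a protease-activated receptor, at 1017 and 1019 bp. On the other side of the rule, an Ep300Δ/Δ peak that reached 3 bp into the window kept out 6820408C15Rik, and one that reached 32 bp kept out Jmjd1c, which encodes a jumonji-domain protein. At 152 of 181 members (84.0%; 77.8% to 89.0%), neither Ep300-deleted list had an H3K27ac peak within 3000 bp of the start. The rule already empties the inner 1000 bp. Outside the window but within 3000 bp, 16.0% of members had a peak in Ep300Δ/Δ and 9.94% in Ep300Δ/ΔTet2-/- cells. Over all 11675 promoters with H3K4me3 these shares were 12.6% and 9.60%, so the 84.0% is not particular to the members. The nearest peak was at a median distance of 22949 bp in Ep300Δ/Δ and 24747 bp in Ep300Δ/ΔTet2-/- cells, a distance that the rule keeps above 1000 bp. At 10 members, among them Irf2bp1, Dnali1, Rbm17, Prpf6, and Elane, the summit of the strongest acetylation peak lay outside the window in both WT and Tet2-/- cells. At 8 of these 10, an Ep300-deleted list still had an H3K27ac peak within 3000 bp of the start. The absence of a peak is also a matter of the threshold of the peak caller: of the 461 promoters lost in Ep300Δ/ΔTet2-/- cells only, 233 (50.5%) were kept out of the members by Ep300Δ/Δ peaks with a −log10 q under 5, and of the 135 lost in Ep300Δ/Δ cells only, 32 (23.7%; 16.8% to 31.8%) were kept out by such peaks in Ep300Δ/ΔTet2-/- cells.

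The strongest members carried genes of diverse cell functions. Ppfibp1, which encodes a liprin-beta scaffold protein, had the highest support, with an H3K27ac fold enrichment of 9.53 in WT and 9.47 in Tet2-/- cells and no peak in the Ep300-deleted lists closer than 154437 bp. Irf2bp1, a transcriptional corepressor, had 8.93 and 12.1 fold, but its summits lay at positions -1191 and -1242 from the start in WT and Tet2-/- cells, just outside the window, and peaks remained at 1088 bp in Ep300Δ/Δ and 1071 bp in Ep300Δ/ΔTet2-/- cells. Srebf1, the transcription factor of sterol and fatty acid synthesis, had 8.74 and 8.72 fold at this start. Other annotated starts of Srebf1 more than 1000 bp away (3 of 11) were acetylated in all 4 genotypes, so that acetylation was absent at 1 start of the gene and present at others. Dnali1, a dynein light intermediate chain of cilia, had 10.4 and 7.96 fold and shared its window with the start of another protein-coding gene. Ralgapa2, a subunit of the Ral GTPase-activating complex, had 7.90 and 9.27 fold.

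Il1rl1, the receptor for interleukin 33 on mast cells and other immune cells, had 7.90 fold in WT and 7.51 fold in Tet2-/- cells, and the nearest H3K27ac peak in Ep300Δ/Δ cells was 35961 bp from the start. Selenbp1, a selenium-binding protein, had 7.49 and 9.38 fold. The splicing factors Rbm17 (7.48 and 7.62 fold) and Prpf6 (9.09 and 7.33 fold) both had a remaining peak just outside the window, at 1189 bp from the start of Rbm17 in Ep300Δ/Δ cells. Heca, a homolog of the Drosophila headcase gene, had 7.42 and 10.4 fold, Agfg1, a protein with Arf GTPase-activating domain, had 9.15 and 7.30 fold, and Pomk, a kinase that acts on dystroglycan sugar chains, had 7.23 and 10.1 fold. Among these 12 strongest members, acetylation therefore remained within 2000 bp in at least 1 Ep300-deleted list at Irf2bp1, Srebf1, Dnali1, Rbm17, and Prpf6, and was at least 16307 bp away at the other 7.

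Genes of blood cell lists were among the members as follows. Gata2, a transcription factor of hematopoietic stem cells and mast cells, was the only member among 24 acetylated stem and progenitor regulators, with 4.49 fold in WT and 4.90 fold in Tet2-/- cells. Hdc, which makes histamine, and Elane, the neutrophil elastase, were the members among 13 acetylated myeloid genes, with 5.99 and 5.64 fold and with 5.48 and 3.53 fold. Nrarp, a Notch target that limits Notch signaling, was 1 of 19 genes of the Notch pathway (3.64 and 2.82 fold), and Il6 was 1 of 42 genes of TNF and NF-kB signaling (3.94 and 6.58 fold). None of 20 erythroid and megakaryocyte genes, 41 interferon response genes, or 32 apoptosis and p53 target genes was a member. The share of members among all acetylated promoters is 2.17%, and the lists are too short for 0, 1, or 2 members to be read against it.

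Other lists were described in the same way. There were 0 members among 80 acetylated cell cycle and replication genes, 76 cytosolic and 75 mitochondrial ribosomal protein genes, 42 genes of respiratory complex I, 61 histone genes, 67 genes of ubiquitin ligases and the proteasome, 56 genes of the cilium and centrosome, 39 of histone acetylation, 30 of H3K4 and DNA methylation, and 4 homeobox and T-box genes. The DNA repair genes Fanca, of the Fanconi anemia complex (10.7 fold in WT and 5.23 fold in Tet2-/- cells), and Ercc2, a helicase of nucleotide excision repair (4.95 and 6.08 fold), were 2 of 75. Ulk2, a kinase that starts autophagy, was 1 of 60 lysosome and autophagy genes (7.91 and 5.51 fold), Srebf1 was 1 of 26 lipid synthesis genes, and Cars2, the mitochondrial cysteinyl-tRNA synthetase, was 1 of 35 tRNA synthetase genes (3.55 and 9.52 fold).

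Among other gene families found by their names there were 5 of 232 Zfp zinc finger genes, with Zfp653, Zfp746, and Zfp647 the strongest, 2 of 125 solute carriers (Slc25a33 and Slc25a20, both mitochondrial carriers), 3 of 103 Tmem genes (Tmem198, Tmem246, and Tmem141), and 1 of 65 Ccdc genes (Ccdc66). Rab7b, Rab4a, and Rab3d, small GTPases of vesicle traffic, were 3 of 55 Rab and Arf genes. Kif1bp, which matched the name pattern of the 20 kinesins, encodes a protein that binds kinesins and is not one.

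Markers of the Lin- population were checked as H3K27ac peaks at the start. Of 8 progenitor genes, 7 were acetylated in each genotype, with Gata2 missing in both Ep300-deleted lists and Cd34 missing in WT and Tet2-/- cells. Gata2 is a member, so the rule fixes its pattern. Of 6 genes of mature lineages removed by the depletion, 2 were acetylated in WT and Ep300Δ/Δ cells and 1 in Tet2-/- and Ep300Δ/ΔTet2-/- cells, with Itgam acetylated in the former genotypes only, and Pecam1 was the 1 of 4 stromal and endothelial genes acetylated, in every genotype. The purity stated for the Lin- cells is above 80%, and the part of other cells in the acetylation of the members was not tested.

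H3K4me1 was not used to choose the members. A peak of H3K4me1 in the window was found at 169 of 181 members in WT (93.4%; 88.7% to 96.5%), 155 in Ep300Δ/Δ (85.6%; 79.7% to 90.4%), 162 in Tet2-/- (89.5%; 84.1% to 93.6%), and 160 in Ep300Δ/ΔTet2-/- cells (88.4%; 82.8% to 92.7%). Members had H3K4me1 in all 4 genotypes at 141 starts and in none at 5, counts that were not compared with other promoters. Among all retained promoters the shares in the 4 genotypes were 72.9%, 75.4%, 70.1%, and 73.2%. The excess of the members over them depended on the window. It was 34.6 percentage points in WT and 18.5 in Ep300Δ/Δ cells with 500 bp, and 7.27 and 0.575 with 3000 bp. Among retained promoters of similar WT acetylation the shares were 78.5%, 84.99%, 79.1%, and 82.9%. Compared with the latter group, members had H3K4me1 more often in WT and Tet2-/- cells, by 14.9 and 10.4 percentage points with intervals that did not overlap, and by only 0.643 and 5.46 points in Ep300Δ/Δ and Ep300Δ/ΔTet2-/- cells, where the intervals overlapped. Other weakly acetylated or unacetylated promoters came nearer to the members. H3K4me1 was found in WT cells at 86.8% (83.3% to 89.7%) of the 461 promoters that lost acetylation in Ep300Δ/ΔTet2-/- cells only, at 84.4% (77.2% to 90.1%) of the 135 that lost it in Ep300Δ/Δ cells only, and at 86.8% (85.3% to 88.1%) of the 2340 without acetylation in any genotype, and the first pair of intervals overlapped that of the members.

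**Figure D2:**
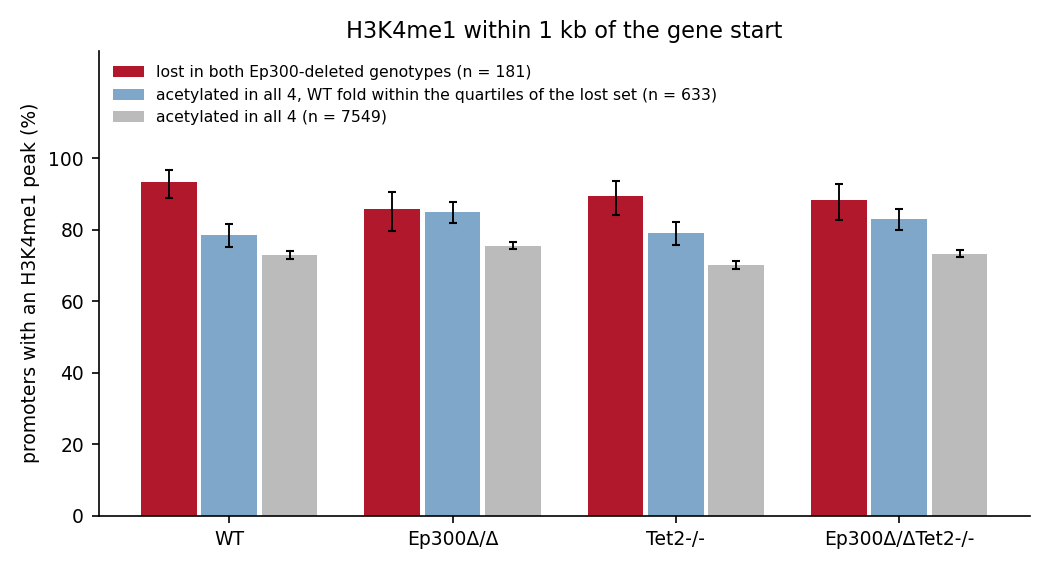
Bars give the percentage of promoters with an H3K4me1 peak within 1 kb of the gene start in each genotype (1 library each), for the members (red), retained promoters with WT H3K27ac fold enrichment between the members' quartiles (blue), and all retained promoters (gray). Error bars are 95% exact binomial intervals, which cover counting error only, and the red bar stands above the blue bar by the widest margin in WT cells.

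Loss of H3K4me1 at the members was near that at promoters in general. A peak present in WT was absent in Ep300Δ/Δ cells at 17 of 169 members (10.1%; 5.97% to 15.6%), compared with a background of 8.88% of all promoters with H3K4me3 in the 4 genotypes. A peak present in Tet2-/- cells was absent in Ep300Δ/ΔTet2-/- cells at 9 of 162 members (5.56%; 2.57% to 10.3%), compared with 9.29%. Vcam1, Inpp5j, and Fbxo27 were among the 17 members, and were named after their values were seen. H3K4me1 lay on both sides of the start, with a dip at the start itself, where 26.5% of members were covered in WT and 23.2% to 25.97% in the other genotypes. At 500 bp downstream of the start, 48.6% of members were covered in WT and 33.7% in Ep300Δ/Δ cells, and 34.8% in both Tet2-/- and Ep300Δ/ΔTet2-/- cells. At 500 bp upstream, 47.0% were covered in WT and 42.5% in Ep300Δ/Δ cells, and 48.6% in Tet2-/- and 43.1% in Ep300Δ/ΔTet2-/- cells. At 1000 bp downstream these shares were 48.6% and 44.8%, and 49.2% and 42.5%. Coverage was thus lower in both Ep300-deleted lists at the last 2 positions, and on the WT background only at the first. At retained promoters the shares at 500 bp upstream were 28.9% in WT and 30.3% in Ep300Δ/Δ cells, and 28.0% in Tet2-/- and 29.95% in Ep300Δ/ΔTet2-/- cells. At 1000 bp downstream they were 34.5% and 36.7%, and 35.4% and 34.4%, and at 500 bp downstream 19.2% and 21.2%, and 14.8% and 18.97%.

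**Figure D3:**
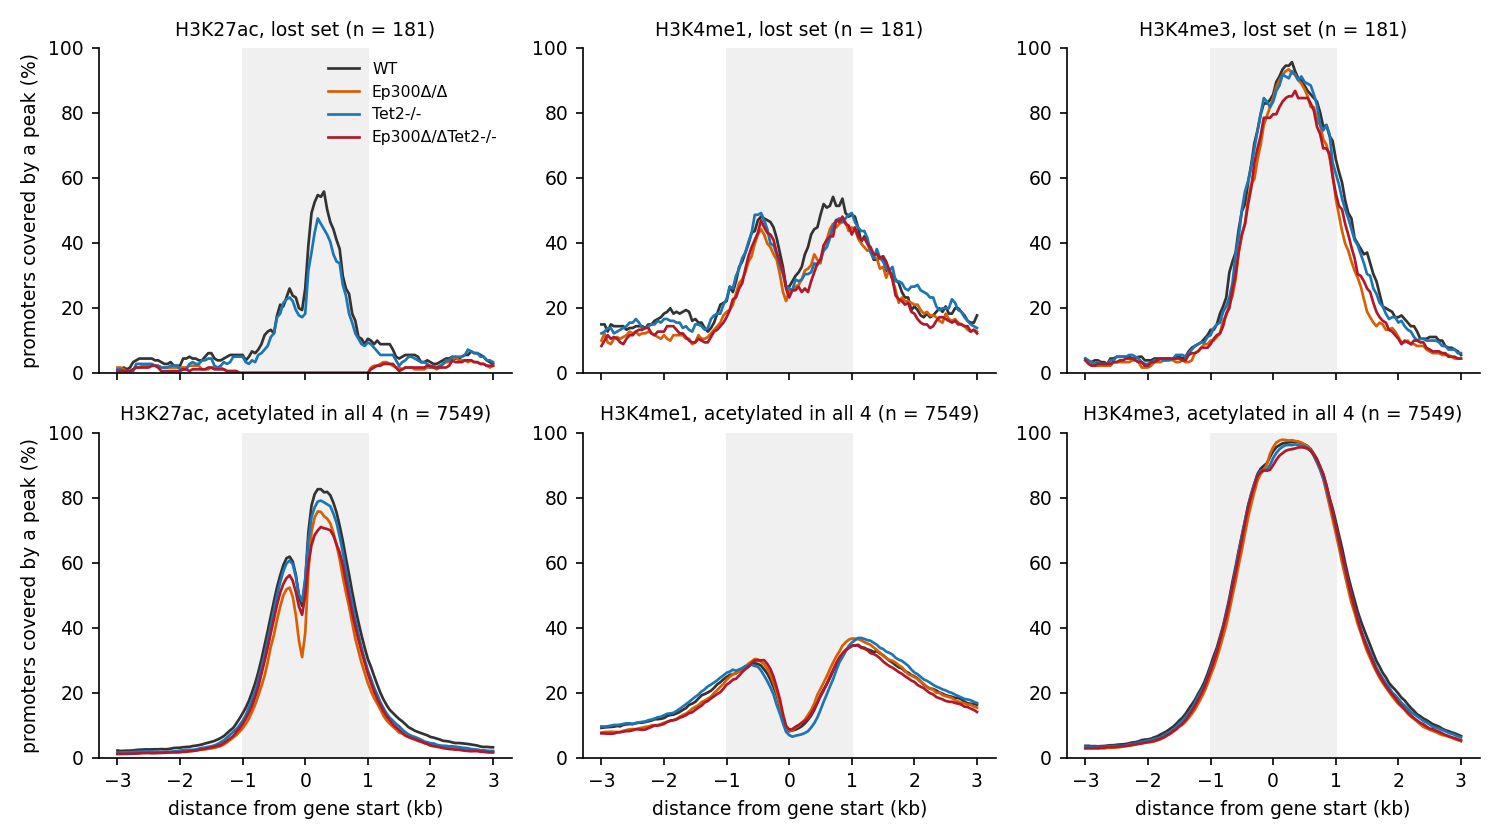
Lines give, in steps of 50 bp, the percentage of promoters covered by a peak of H3K27ac, H3K4me1, or H3K4me3 at each distance from the gene start along the direction of transcription, for the 181 members (top) and the 7549 retained promoters (bottom) in the 4 genotypes, with the window of the rule shaded. The rule itself sets H3K27ac of both Ep300-deleted genotypes to 0 in the shaded window of the top left panel. H3K4me3 covered the start of 79.6% to 85.6% of the members in the 4 genotypes.

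Presence of H3K4me3 was required by the rule, but its width and rank were not used. The strongest H3K4me3 peak of the members had a median width of 1497 bp in WT, 1360 bp in Ep300Δ/Δ, 1438 bp in Tet2-/-, and 1209 bp in Ep300Δ/ΔTet2-/- cells. Its median percentile in each list was 70.9, 67.4, 72.8, and 64.5. Retained promoters had wider and higher ranking peaks, with median widths of 1875, 1816, 1767, and 1758 bp and median percentiles of 83.9, 82.4, 82.7, and 82.8. Those of similar WT acetylation had median widths of 1596, 1569, 1580, and 1541 bp and percentiles of 73.5, 76.9, 80.6, and 79.2. H3K4me3 peaks persisted at the members by definition, and their median width was smaller in each Ep300-deleted list than in the corresponding list with Ep300. The percentiles describe 1 list each.

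Promoter by promoter, the H3K4me3 peak was narrower in Ep300Δ/Δ than in WT cells at 143 of 181 members (79.0%), compared with a background of 61.3% of all 11675 promoters. It was narrower in Ep300Δ/ΔTet2-/- than in Tet2-/- cells at 126 members (69.6%), compared with a background of 54.2%. At the 461 promoters that lost acetylation in Ep300Δ/ΔTet2-/- cells only, these shares were 63.3% and 62.9%. At the 135 that lost it in Ep300Δ/Δ cells only, both were 63.0%. The median ratio of widths was 0.925 and 0.937 at the members, 0.971 and 0.997 at retained promoters, and 0.975 and 0.993 at those of similar WT acetylation. It was 0.962 and 0.965 at the 461 promoters, and 0.965 and 0.956 at the 135. Counting all bases covered by H3K4me3 within 3000 bp of the start, so that a split peak would not count as narrower, the members had medians of 1842 bp in WT, 1550 bp in Ep300Δ/Δ, 1755 bp in Tet2-/-, and 1545 bp in Ep300Δ/ΔTet2-/- cells. The median ratio of covered bases was 0.896 and 0.933, compared with 0.965 and 0.985 at retained promoters of similar WT acetylation. With 1 library for each genotype, these differences have no replicate check, and the width of a peak also depends on the depth and yield of a library. Part of such differences is shared by all promoters of a list, which the background shares show.

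Among the members, the width ratios were lowest at CpG-poor promoters. At the 24 members with a CpG ratio under 0.3, the median width ratio was 0.689 in Ep300Δ/Δ relative to WT and 0.853 in Ep300Δ/ΔTet2-/- relative to Tet2-/- cells. At the 68 members with a ratio from 0.3 to 0.6 these values were 0.882 and 0.937, and at the 89 members of at least 0.6 they were 0.962 and 0.957. Retained promoters of similar WT acetylation and a CpG ratio under 0.3 (50 promoters) had 0.966 and 0.993, and all 308 retained promoters with a ratio under 0.3 had 0.928 and 0.971. Low ratios were also found at the 34 CpG-poor promoters that lost acetylation in Ep300Δ/ΔTet2-/- cells only, with medians of 0.846 and 0.893, but not at the 17 that lost it in Ep300Δ/Δ cells only, with 0.960 and 0.989. These CpG classes were chosen after the values were seen and were not tested.

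**Figure D4:**
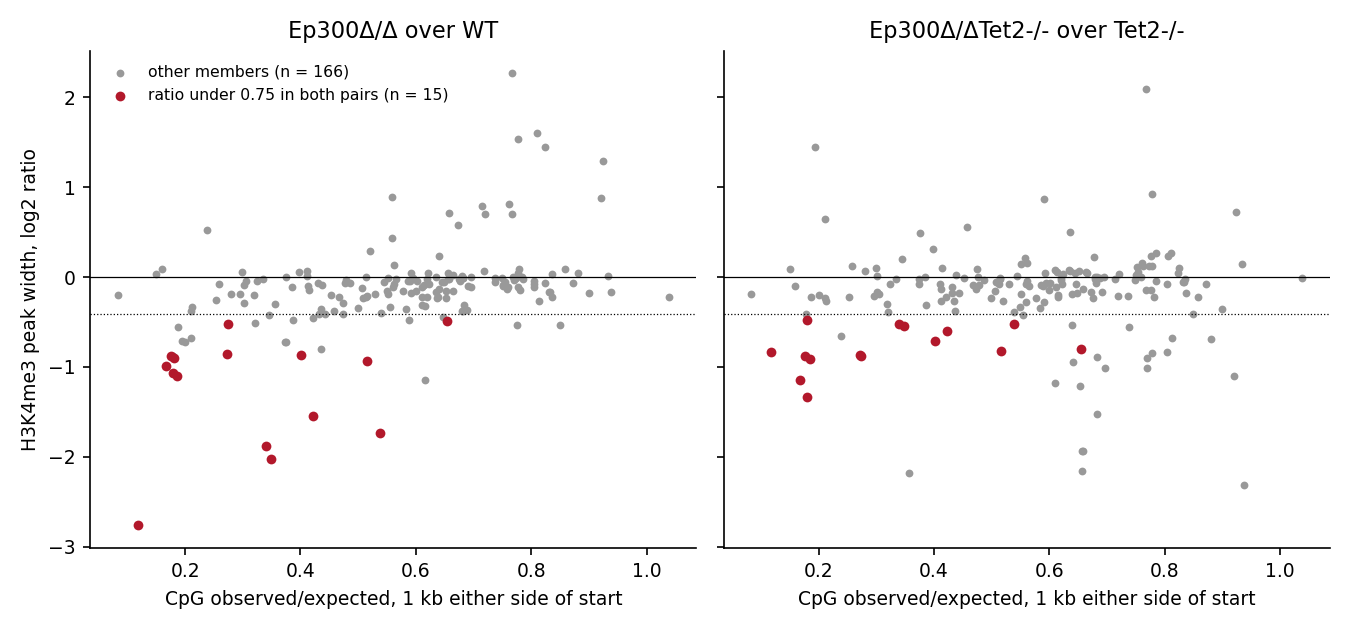
Each point is a member, placed by its ratio of observed to expected CpG within 1 kb of the start (horizontal axis) and the log2 ratio of the width of its strongest H3K4me3 peak without and with Ep300 (vertical axis), on the WT (left) and Tet2-/- (right) background. The 15 members with a width ratio under 0.75 (dotted line) on both backgrounds are red, and 14 of them lie below a CpG ratio of 0.6.

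At 15 of 181 members (8.29%; 4.71% to 13.3%) the H3K4me3 peak had less than 0.75 of its width on both backgrounds, compared with a background of 2.07% of all promoters, 1.38% of retained promoters, 2.05% of those of similar WT acetylation, and 4.12% of those that lost acetylation in Ep300Δ/ΔTet2-/- cells only. These 15 members were singled out after their values were seen. Of the genes on the myeloid list, Hdc was among them and Elane was not. At Il1rl1 (chromosome 1, 40429570 to 40465415), the H3K4me3 peak was 1512 bp wide in WT, 763 bp in Ep300Δ/Δ, 1677 bp in Tet2-/-, and 759 bp in Ep300Δ/ΔTet2-/- cells. At Adgrg3 (chromosome 8, 95017692 to 95045250), an adhesion G protein-coupled receptor of granulocytes, the widths were 2132, 1018, 2229, and 881 bp. At Cd300lb (chromosome 11, 114922781 to 114934386), an activating receptor of myeloid cells, they were 2090, 1141, 2020, and 1102 bp. At these 3 receptors, the widths with Ep300 and the widths without it formed separate groups, of which the choice of these members fixes the order within each background.

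At Hdc (chromosome 2, 126593667 to 126619299), the widths were 1497 bp in WT, 1043 bp in Ep300Δ/Δ, 2559 bp in Tet2-/-, and 1390 bp in Ep300Δ/ΔTet2-/- cells, with the Tet2-/- peak the widest. At Fcho1, a protein that starts clathrin-coated pits, they were 3520, 1204, 1730, and 1143 bp. At Dio2, the deiodinase that activates thyroid hormone, they were 2579, 1426, 2553, and 1405 bp. The small GTPase gene Rab4a had 2657, 1387, 2519, and 1425 bp, and Rab7b had narrow peaks of 506, 272, 479, and 344 bp. The remaining members of this group were Inpp5j, Trpm2, F5, P2ry2, Vcam1, Fbxo27, and Mmp14, which include the calcium-permeable channel TRPM2, coagulation factor V, the nucleotide receptor P2Y2, the adhesion molecule VCAM-1, and a membrane-bound matrix metalloproteinase. Inpp5j had the narrowest remaining peak, 255 bp in Ep300Δ/Δ compared with 1728 bp in WT cells, and 869 bp in Ep300Δ/ΔTet2-/- compared with 1547 bp in Tet2-/- cells. Vcam1 had 1280, 314, 525, and 361 bp, with most of the difference on the WT background.

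**Figure D5:**
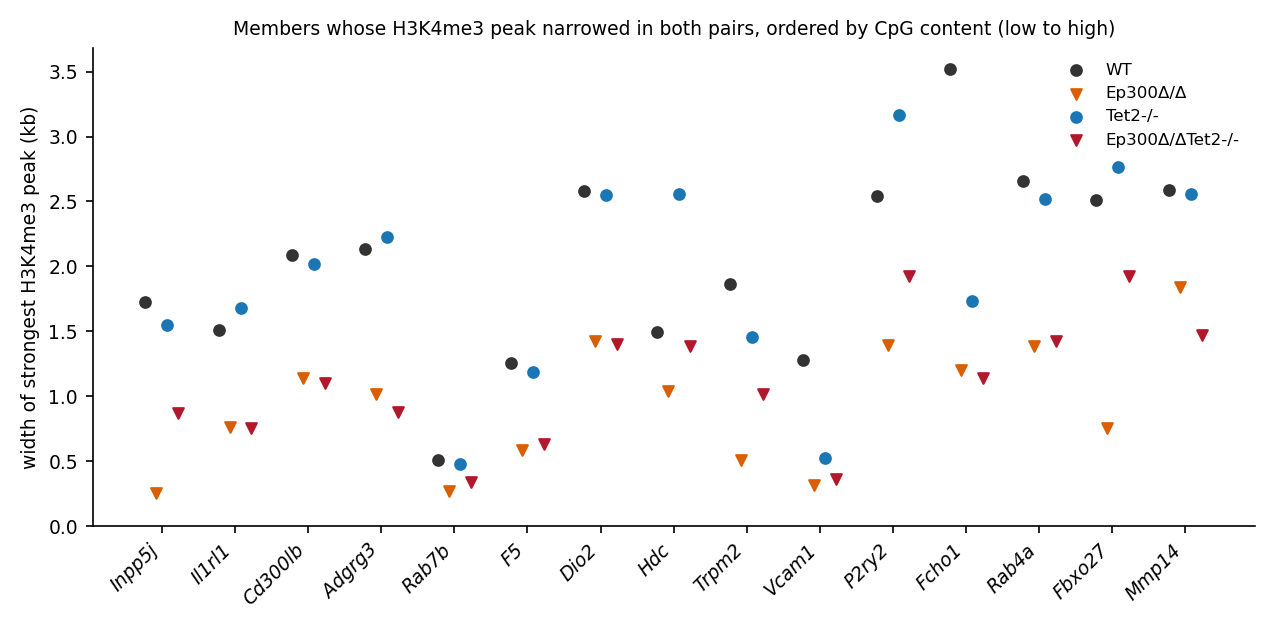
Points give the width in kb of the strongest H3K4me3 peak in each genotype (1 library each) for the 15 members with a width ratio under 0.75 on both backgrounds, ordered from the lowest to the highest CpG ratio. Circles are genotypes with Ep300 and triangles those without, and within each background the triangle lies below the circle by the choice of these members.

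The members named through the gene lists did not have 1 common pattern of H3K4me3. Gata2 (chromosome 6) kept the widest H3K4me3 domain of all members, 8424 bp in WT, 8389 bp in Ep300Δ/Δ, 5190 bp in Tet2-/-, and 4969 bp in Ep300Δ/ΔTet2-/- cells, although its acetylation peak was absent in both Ep300-deleted lists. Elane had 1037, 986, 1049, and 1145 bp, a width that was nearly the same in the 4 genotypes. Nrarp had wider peaks without Ep300, 598 bp in WT and 1728 bp in Ep300Δ/Δ, and 697 bp in Tet2-/- and 1321 bp in Ep300Δ/ΔTet2-/- cells, and was among the members listed as lower in RNA. At Il6 the widths were 846, 514, 913, and 796 bp.

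Acetylation outside the window was also less common in the Ep300-deleted lists. An H3K27ac peak within 3000 bp of the start but outside the window was found at 36 members in WT and 29 in Ep300Δ/Δ cells, and at 29 in Tet2-/- and 18 in Ep300Δ/ΔTet2-/- cells. Over all 11675 promoters with H3K4me3 these shares were 14.9%, 12.6%, 12.4%, and 9.60%, which also were lower in the shorter Ep300-deleted lists. Within 50 kb the numbers were 152, 138, 147, and 131. The shares within 50 kb among retained promoters were 80.3%, 75.1%, 78.8%, and 73.2%, close to the 84.0%, 76.2%, 81.2%, and 72.4% of the members. Another annotated start of the same gene, more than 1000 bp away, was acetylated at 32 members in WT and 16 in Ep300Δ/Δ cells, and at 27 in Tet2-/- and 13 in Ep300Δ/ΔTet2-/- cells. The window of a start just over 1000 bp away overlaps the member's own window, which the rule empties in both Ep300-deleted lists. The rule therefore lowers the members' counts in these lists, and how far was not tested. Among retained promoters of similar WT acetylation, such starts were acetylated at 107, 97, 103, and 86 of 633. At promoters that lost acetylation in Ep300Δ/ΔTet2-/- cells only, the counts were 82, 66, 71, and 39 of 461. Over all 11675 promoters the shares were 16.3%, 14.1%, 14.99%, and 13.1%. At 11 members (6.08%), Srebf1 among them, another start was acetylated in both Ep300-deleted lists. This share was 12.2% of retained promoters of similar WT acetylation and 11.9% of all 11675 promoters. The rule lowers the share of the members in the same way.

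The start of another protein-coding gene lay in the window at 12 of 181 members (6.63%; 3.47% to 11.3%), compared with 26.96% of retained promoters (25.96% to 27.97%) and 15.2% of those of similar WT acetylation (12.5% to 18.2%). The share was also low, 6.45%, at the 2340 promoters without acetylation, and 14.1% (8.69% to 21.1%) at the 135 that lost it in Ep300Δ/Δ cells only. In 5 gene pairs both genes were members and share their peaks: the oppositely oriented pairs Tmem198 and Chpf, Smpd2 and Ppil6, Yrdc and 1110065P20Rik, and Ak8 and Spaca9, and Zfp653 with the overlapping Gm49318.

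A set of 14 short sequence motifs was searched on both strands in the 300 bases from 250 before to 50 after the GENCODE start, read from the genome. The GC box (GGGCGG) occurred at 65.2% of the members, 64.0% of retained promoters, 63.3% of those of similar WT acetylation, and 43.7% of all 20807 starts, and the CCAAT box (CCAAT) at 42.0%, 40.0%, 41.1%, and 38.6%. An ETS motif (CCGGAAG) was found at 12.2% of the members (7.78% to 17.8%), compared with 22.5% of retained promoters (21.6% to 23.5%), 17.4% of those of similar WT acetylation (14.5% to 20.6%), and 11.0% of all starts. A Runx motif (TGTGGT) was found at 14.4%, 12.3%, 15.01%, and 15.4%, and a GATA motif (AGATAAG) at 1.66%, 1.64%, 1.74%, and 2.71%. A cyclic AMP response element (CRE, TGACGTCA) was found at 7 members (3.87%; 1.57% to 7.81%), compared with 4.25% of retained promoters and 0.790% of those of similar WT acetylation (0.257% to 1.83%). A PU.1 motif (GAGGAAGT) was found at 1 member (0.552%; 0.0140% to 3.04%), compared with 3.29% (2.89% to 3.71%) and 2.69% (1.57% to 4.27%). The other 7 were the TATA box (TATAAA, 6.63% of the members), NRF1 (GCGCATGCG, 4.97%), YY1 (AAGATGGCG, 2.21%), AP-1 (TGANTCA, 4.97%), the E-box (CACGTG, 9.39%), Myb (AACNG, 79.0%), and NF-kB (GGGANTTCC, 1.66%). For each of the 14 motifs, the interval of the members overlapped that of the promoters of similar WT acetylation. A match is a description of the letters and not a binding site.

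RNA was considered through a gene list of the study, which holds genes lower or higher in RNA of sorted progenitors (HSPCs) of Ep300Δ/ΔTet2-/- than of Tet2-/- mice. These cells are a narrower gate than Lin- cells, and no expression values were analysed here. Of the members, 20 of 181 (11.0%; 6.88% to 16.5%) were on the list of lower genes, compared with a background of 5.04% of all 11675 promoters with H3K4me3, 4.23% of retained promoters (3.78% to 4.70%), and 5.21% of those of similar WT acetylation (3.62% to 7.24%). On the list of higher genes were 5 members (2.76%; 0.903% to 6.33%), compared with a background of 2.42%. The list was chosen by the study on mice of the same model, and its overlap with the members is a description.

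Ranks by support among all members ran from 6 to 79 for the following genes on the list of lower genes. These were Il1rl1, D1Ertd622e, Ephb2, Xylt1, Hdc, Rab7b, Kcnj2, Cd300lb, Fcho1, and Ncam1, in order of support. They include the receptor tyrosine kinase EphB2 (H3K27ac 6.63 fold in WT and 8.25 fold in Tet2-/- cells), the xylosyltransferase of proteoglycan synthesis Xylt1 (6.56 and 7.55 fold), the potassium channel Kcnj2 (5.73 and 5.54 fold), and the neural cell adhesion molecule Ncam1 (5.48 and 4.62 fold). The 5 members on the list of higher genes were Ppfibp1, Fanca, Cpd, Gata2, and Hacd4. Of the 15 members with a narrower H3K4me3 peak on both backgrounds, 7 were on the list of lower genes (Il1rl1, Hdc, Rab7b, Cd300lb, Fcho1, Adgrg3, and Dio2), compared with 13 of the other 166 members (7.83%). With the same narrowing, 42 of all 242 promoters (17.4%), 16 of 104 retained promoters, and 1 of the 19 that lost acetylation in Ep300Δ/ΔTet2-/- cells only were on it. Of promoters with a CpG ratio under 0.3, 7 of 24 members (29.2%; 12.6% to 51.1%) and 95 of all 692 (13.7%) were on it. The share was 18.2% of the 308 retained, 7 of the 50 of similar WT acetylation, 5 of the 34 that lost acetylation in Ep300Δ/ΔTet2-/- cells only, 0 of the 17 that lost it in Ep300Δ/Δ cells only, and 6.90% of the 174 never acetylated. The 15 were singled out after their values were seen, and no test was made. Xylt1, by contrast, had H3K4me3 widths of 3672 bp in WT, 3780 bp in Ep300Δ/Δ, and 3920 bp in Tet2-/- cells, and 880 bp in Ep300Δ/ΔTet2-/- cells, so that its peak was narrow in that list only.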

How the data were processed

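Of 20 libraries, the 12 narrow-peak lists of H3K27ac, H3K4me1, and H3K4me3 were used, 1 for each genotype and mark; the H3 and H3K27me3 libraries were not analysed here. According to the methods and the submitters' processing notes, the authors used Cutadapt (1.15) to trim adapters, BWA (0.7.13) for alignment to the mm10 genome, and Picard to remove duplicates, and called peaks with MACS2 (2.1.1.20160309) against the H3 library, keeping peaks found in pseudo-replicates. The deposited lists give a score, a fold enrichment (a ratio to H3), and −log10 of the P and q values. Fold enrichment and −log10 q were used, and the deposited score was not used. Several properties of these lists bear on absence: sequencing depth cannot be read from them, and weak enrichment below the threshold leaves no entry. The methods describe no scaling of the lists to the 10 ng Drosophila spike-in. A peak with q over 0.05 made up 7.17% of the Ep300Δ/Δ H3K27ac list and 0.780% to 0.900% of the other 3 H3K27ac lists, although a threshold of 0.05 is stated.

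Groups came from the sample labels. A promoter had a mark where a peak overlapped the window by at least 1 bp, as the methods did for overlaps. Genes, coordinates, and CpG content came from GENCODE mouse release M21 and GRCm38, the same assembly, with Python 3.11.15, numpy 2.4.6, pandas 2.3.3, scipy 1.17.1, and pysam 0.24.0. RefSeq promoters matched 141 of 181 members, under the 80% asked of a comparison, and motifs were therefore searched in the genome at the GENCODE start. Shares have exact Clopper-Pearson 95% intervals. There were no tests, because each genotype has 1 library. The overlap search was tested on simulated data, where it found 200 of 200 planted members. Named were the 12 members of highest support, members on gene lists (at most 3 of a family found by name), at most 12 on each RNA list, and those nearest to the edge of the rule; others are said to have been chosen after their values were seen, and a few genes that the rule names are not reported here. The members and lists were chosen with earlier results of these data known.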

Additional observations from a re-analysis of the deposited data

Results flagged for a closer look

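At 2 of the named members the width of the strongest H3K4me3 peak went in opposite directions with the Ep300 deletion on the WT and Tet2-/- backgrounds, by a ratio of at least 5 to 4 each way. At Dnali1 the width in Ep300Δ/Δ was 0.767 of that in WT, and the width in Ep300Δ/ΔTet2-/- was 1.47 of that in Tet2-/- cells. At Heca these ratios were 1.84 and 0.467. The differences between the backgrounds were not tested.

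The median percentile of the members' strongest H3K4me1 peak was 66.1 in WT and 63.0 in Ep300Δ/Δ cells, and 54.3 in Tet2-/- and 56.3 in Ep300Δ/ΔTet2-/- cells. The order of these medians was opposite on the 2 backgrounds, which was not tested. They are ranks within lists of 107392, 90738, 98069, and 93465 peaks over 169, 155, 162, and 160 members, and were not read as changes.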

How the results depend on the processing

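No paired analysis was possible because each genotype and mark has 1 library and no result comes from a test. The number of members was 152 to 203 under 9 alternatives. It was 353 when only peaks with −log10 q of at least 5 were used, 105 when such peaks were asked for presence only, and 110 with lists of equal size, of which 73 were among the 181. Absence can come from a threshold: the first of these removes peaks from the Ep300-deleted lists too.

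The share lost from WT to Ep300Δ/Δ was 7.33% with 500 bp windows, 5.58% with absence within 3000 bp, 13.6% with −log10 q of at least 5, 4.67% with this asked for presence only, 5.34% with equal lists, 7.87% without other starts in the window, and 7.54% without peaks of q over 0.05. From Tet2-/- to Ep300Δ/ΔTet2-/- the first 6 of these gave 10.6%, 8.59%, 11.3%, 7.97%, 7.41%, and 10.7%, so that the order of the backgrounds turned with −log10 q of at least 5. The share of members was 1.83% with absence within 3000 bp, 4.43% and 1.32% with the thresholds on q, 1.44% with equal lists, and 2.74% without other starts.

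The share of members with H3K4me1 in WT was 82.3%, 96.7%, and 97.2% with windows of 500, 2000, and 3000 bp, 87.8% by summits, and 75.1% with −log10 q of at least 5. In Ep300Δ/Δ it was 69.6% (500 bp), 91.7% (3000 bp), 75.7% (summits), and 56.9% (q). In Tet2-/- it was 73.5% (500 bp) and 80.1% (q), and in Ep300Δ/ΔTet2-/- 72.9% (500 bp), 80.7% (summits), and 67.4% (q). The excess over retained promoters was 20.5 percentage points in WT and 10.2 in Ep300Δ/Δ. It was 34.6 and 18.5 with 500 bp, 9.64 and 1.38 with 2000 bp, and 7.27 and 0.575 with 3000 bp. In Tet2-/- it was 19.4 and in Ep300Δ/ΔTet2-/- 15.2, and 3.96 and 2.90 with 3000 bp. The median CpG ratio of the members was 0.699 within 500 bp and 0.696 in 300 bases. Its difference from retained promoters was −0.058, but 0.017 against those of similar WT acetylation.

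The share of members with H3K4me3 under 0.75 of its width on both backgrounds was 8.29%, and 6.82% to 12.2% under 4 alternatives. The share on the RNA list of lower genes was 9.87% to 13.3% under 2. These 6, the 300-base CpG ratio, and the removal of peaks of q over 0.05 were added after the data were seen. In RefSeq promoters the median CpG ratio was 0.730, but only 141 of 181 members had one, which makes this value void as a check. The causes of these differences were not tested, and depth, unknown here, limits every absence.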
